A study of Rattus norvegicus with 8 samples.

Results

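A set of 10 genes that bring long-chain fatty acids into heart cells, carry them there and attach them to coenzyme A was followed on arrays of rat left ventricle. They are Cd36, Lpl, Slc27a1, Fabp3, Fabp4, Fabp5, Acsl1, Acsl3, Acsl4 and Acsl5, grouped by their role. The set was chosen with earlier results of these data known. All probe sets that the platform annotation gives to 1 of these symbols alone were taken, which found 10 of 10 genes with 11 probe sets, of 14497 named genes and 28826 probe sets in all; Cd36 had 2 probe sets and every other gene 1. The tested hearts (5 arrays) came from female rats in late pregnancy and had ischemia, the stop of blood flow, followed by reperfusion with the treatment labelled ILPD, for which the design text states 1 bolus and a dose of 5 mg/kg. The comparison hearts (3 arrays) came from the same kind of animal with the same ischemia and reperfusion and received vehicle, labelled placebo. The design text writes ITLD where the sample labels write ILPD, and the title speaks of Intralipid, an intravenous fat emulsion; that these are the same treatment is assumed. Both groups carried the injury, and no hearts without ischemia, other times or non-pregnant animals were analysed here. The labels give neither strain, age, time of reperfusion nor whether each array is a separate animal, so the p-values reflect only how far these samples spread, which may be technical.

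The heart burns mainly fatty acids. They reach it bound to albumin or in the triglycerides of lipoproteins, from which lipoprotein lipase frees them at the capillary wall; CD36 and the fatty acid transport proteins bring them across the membranes, small binding proteins of the FABP family carry them through the cell, and acyl-CoA synthetases of the ACSL family activate them. An activated fatty acid can then be burned, stored or built into phospholipids. Intralipid itself is an emulsion of triglycerides. The comparison shows whether transcripts of this route differed after the treatment.

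In ILPD hearts Fabp4 and Acsl4 rose and none of the other 8 genes passed the test. Fabp4 was 1.76-fold higher (95% confidence interval 1.42 to 2.18) and Acsl4 1.52-fold higher (1.3 to 1.77). Fabp5, at 1.43-fold (1.19 to 1.71), did not pass, with an adjusted p just above the threshold. In bulk tissue, more cells of a type and more RNA per cell cannot be told apart. The genes that heart muscle itself mainly uses for this route are Cd36, Lpl, Slc27a1, Fabp3 and Acsl1. As deposited they differed by at most 0.20 on the log2 scale in either direction, and none of them passed. After a further normalization (cyclic loess, below) none passed either, and the largest difference among them was 0.23, for both Cd36 probe sets. Values are log2 as deposited. The test was limma across all probe sets with a threshold of 0.05 on the Benjamini-Hochberg adjusted p. It called 2 of 11 member probe sets as higher (18.2%), beside 1.96% of all probe sets, and 0 of 11 as lower, beside 0.857%; at an unadjusted p under 0.05 these counts were 3 and 1, where 11.3% of all probe sets were higher and 7.01% lower. In either direction 2.81% of all probe sets were called, and 18.3% had an unadjusted p under 0.05. The median difference was 0.07 over the members and 0.02 over all probe sets. All 5 ILPD arrays lay above all 3 placebo arrays for 3 member probe sets (27.3%, beside 7.95% of all) and below them for 2 (18.2%, beside 4.42%).

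**Figure D1:**
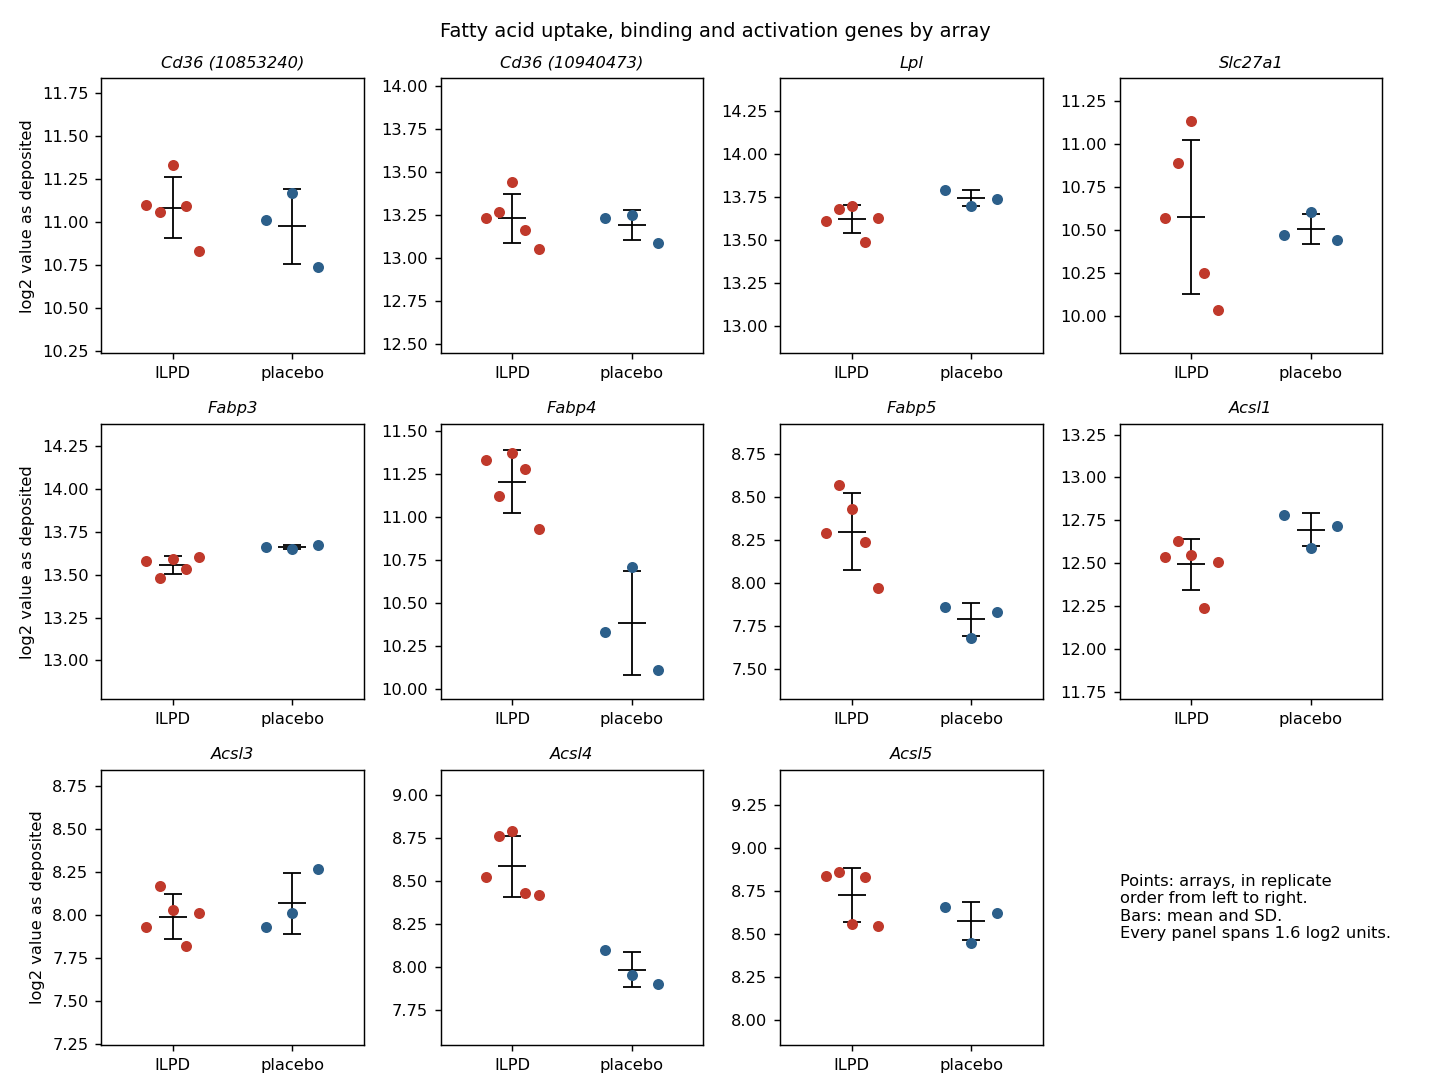
Log2 value as deposited of each of the 11 probe sets on each array, ILPD arrays on the left of each panel and placebo arrays on the right, with the mean and SD of each group. In the panels of Fabp4, Fabp5 and Acsl4 the 5 ILPD points lie above the 3 placebo points, and in that of Slc27a1 the ILPD points spread from 10.03 to 11.13 around the placebo points.

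Defining markers of cardiomyocytes were bright on all arrays. Myh6, the main myosin heavy chain of the adult rat ventricle, averaged 13.68 ± 0.09 in ILPD hearts (SD, n = 5) and 13.87 ± 0.09 in placebo hearts (SD, n = 3), and Tnnt2, cardiac troponin T, averaged 13.94 ± 0.08 and 14.03 ± 0.05 in the same groups. Arrays of 1 group correlated at 0.991 to 0.995 over all probe sets and arrays of different groups at 0.989 to 0.993. Bright probe sets tended to read slightly lower on ILPD arrays. By mean log2 value, all probe sets between 11 and 12 and those between 13 and 15 had a median difference of -0.13. Those between 12 and 13 had -0.15, those between 10 and 11 had -0.10 and those between 8 and 9 had 0.02. Cyclic loess normalization, which evens out such shifts, brought these medians to between -0.01 and 0.07. Lpl, Fabp3, Fabp4, Acsl1, Slc27a1 and both Cd36 probe sets lie in the bright bands, so their values after it are given beside theirs below. Genes are not ranked by level, since probe sets differ in how they bind.

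Lipoprotein lipase and the membrane carriers come first in the route. Lpl, the enzyme that splits triglycerides at the vessel wall, read 13.61, 13.68, 13.70, 13.49 and 13.63 on the ILPD arrays and 13.79, 13.70 and 13.74 on the placebo arrays. All ILPD arrays lay below all placebo arrays, but the gap between the groups was only 0.01. The difference was -0.12 (SE 0.06, 95% confidence interval -0.26 to 0.01, limma adjusted p = 0.315), close to the -0.13 median of probe sets of like brightness, and it was 0.07 after cyclic loess.

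Cd36, the scavenger receptor that serves as the main fatty acid translocase of muscle, gave the same picture with both probe sets. Probe set 10940473 read 13.23, 13.27, 13.44, 13.16 and 13.05 on the ILPD arrays and 13.23, 13.25 and 13.09 on the placebo arrays. The groups overlapped almost fully, with a difference of 0.04 (SE 0.08, interval -0.15 to 0.23, limma adjusted p = 0.861). Probe set 10853240 read 11.10, 11.06, 11.33, 11.09 and 10.83 on the ILPD arrays and 11.01, 11.17 and 10.74 on the placebo arrays, a difference of 0.11 (SE 0.12, interval -0.15 to 0.37, adjusted p = 0.676). Both gave 0.23 after cyclic loess, where neither passed. The intervals as deposited reach 1.17-fold and 1.29-fold on the upper side, so a rise of Cd36 of that size is not shown and lies within the error.

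Slc27a1 encodes FATP1, a transport protein that takes up fatty acids and activates them. It read 10.57, 10.89, 11.13, 10.25 and 10.03 on the ILPD arrays and 10.47, 10.60 and 10.44 on the placebo arrays. ILPD arrays 2 and 3 lay above every placebo array and ILPD arrays 4 and 5 below every one. The difference of the means was 0.07 (SE 0.22, interval -0.41 to 0.55, limma adjusted p = 0.909), and it was -0.07 without ILPD array 3 and -0.01 without ILPD array 2. After cyclic loess the difference was 0.17 (limma adjusted p = 0.789), beside a median of -0.10 as deposited for probe sets of like brightness. The SD over the ILPD arrays was 0.45, larger than that of 99.4% of all probe sets in these arrays, while the SD over the placebo arrays was 0.09, larger than that of 48.7%.

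The binding proteins differed among themselves. Fabp3, the heart-type protein of cardiomyocytes, read 13.58, 13.48, 13.59, 13.53 and 13.60 on the ILPD arrays and 13.66, 13.65 and 13.67 on the placebo arrays. The groups did not overlap, with a gap of 0.05, and the difference was -0.10 (SE 0.05, interval -0.22 to 0.01, limma adjusted p = 0.316). It was again close to the median of probe sets of like brightness, -0.13, and was 0.09 after cyclic loess.

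Fabp4, the binding protein of fat cells, macrophages and the endothelium of heart capillaries, read 11.33, 11.12, 11.37, 11.28 and 10.93 on the ILPD arrays and 10.33, 10.71 and 10.11 on the placebo arrays. The lowest ILPD array stood 0.22 above the highest placebo array. Means were 11.20 ± 0.18 in ILPD hearts (SD, n = 5) and 10.39 ± 0.30 in placebo hearts (SD, n = 3), a difference of 0.82 (SE 0.14, limma adjusted p = 0.0173). It was 0.93 after cyclic loess (adjusted p = 0.0213). Among the fits without single arrays, the call was lost without placebo array 1 (difference 0.79, adjusted p = 0.0626) and without placebo array 3 (0.68, adjusted p = 0.0689), and the placebo SD of Fabp4 was larger than that of 97.4% of all probe sets.

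Fabp5, a related binding protein found in epidermis, endothelium and macrophages, read 8.29, 8.57, 8.43, 8.24 and 7.97 on the ILPD arrays and 7.86, 7.68 and 7.83 on the placebo arrays. Every ILPD array lay above every placebo array, with a gap of 0.11 set by ILPD array 5. The difference was 0.51 (SE 0.12, interval 0.25 to 0.77), with a limma adjusted p of 0.0509 that did not pass. Over 15 alternatives that p ran from 0.0135 without ILPD array 5 to 0.17 without placebo array 2, and it passed in 5 of them.

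The synthetases also divided. Acsl1, the main acyl-CoA synthetase of heart muscle, which feeds fatty acids to mitochondria, read 12.54, 12.63, 12.55, 12.24 and 12.51 on the ILPD arrays and 12.78, 12.59 and 12.72 on the placebo arrays. Of the 5 ILPD arrays 4 lay below every placebo array. The difference was -0.20 (SE 0.09, interval -0.40 to -0.01, limma adjusted p = 0.256), beside -0.15 for probe sets of like brightness, and it was -0.04 after cyclic loess.

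Acsl4, which prefers arachidonic acid and other polyunsaturated fatty acids and is known for its part in ferroptosis, a death by lipid peroxidation, read 8.52, 8.76, 8.79, 8.43 and 8.42 on the ILPD arrays and 8.10, 7.95 and 7.90 on the placebo arrays. The gap between the groups, 0.32, was the widest among the 11 probe sets. Means were 8.58 ± 0.18 in ILPD hearts (SD, n = 5) and 7.98 ± 0.10 in placebo hearts (SD, n = 3), a difference of 0.60 (SE 0.10, limma adjusted p = 0.0172). Cyclic loess gave 0.57 (adjusted p = 0.0198). Among the fits without single arrays, the call was lost without placebo array 2 (0.58, adjusted p = 0.078) and without placebo array 3 (0.56, adjusted p = 0.0777).

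Acsl3, a synthetase of the endoplasmic reticulum and lipid droplets, ran from 7.82 to 8.17 over the ILPD arrays (median 8.01) and read 7.93, 8.01 and 8.27 on the placebo arrays. The difference was -0.08 (SE 0.09, interval -0.29 to 0.14, limma adjusted p = 0.741). Acsl5, a synthetase of mitochondria and endoplasmic reticulum, ran from 8.55 to 8.86 (median 8.83) and read 8.66, 8.45 and 8.62 on the placebo arrays, with a difference of 0.15 (SE 0.09, interval -0.06 to 0.36, adjusted p = 0.434). For both genes the groups overlapped.

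**Figure D2:**
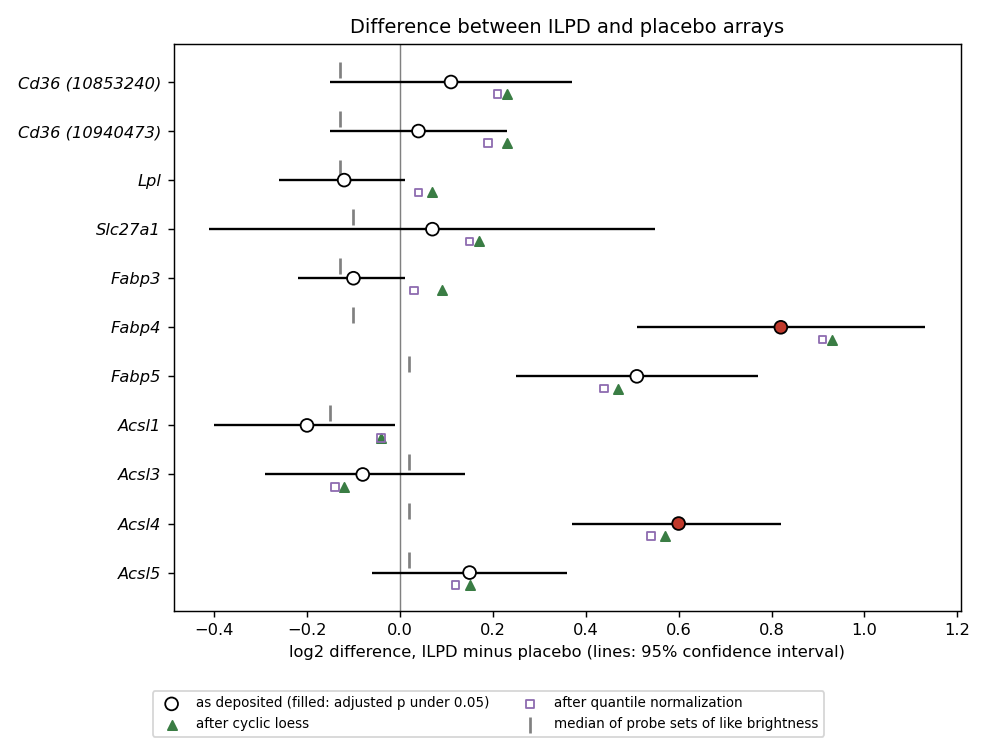
Log2 difference of ILPD minus placebo for each probe set (circles) with its 95% confidence interval, beside the difference after cyclic loess or quantile normalization and the median difference of all probe sets of like brightness. Fabp4 (0.82) and Acsl4 (0.60) are the filled circles, Fabp5 (0.51) lies beside them, and Lpl and Fabp3 turn from below 0 to above 0 after either normalization.

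Whether members of 1 family changed unequally was tested directly, as the within-array difference of 2 genes. Over all 56 splits of the 8 arrays into 5 and 3, the exact permutation test (two-sided) can reach 0.0179 at the lowest. Of 9 pairs 4 reached it (Benjamini-Hochberg adjusted p = 0.0402 for each over the 9 pairs). This adjusted p rests on the tie of these 4 at the lowest p. Each of the 4 holds Acsl4 or Fabp3, so they are not separate pieces of evidence. Acsl4 minus Acsl1 was -3.91 ± 0.14 in ILPD hearts (SD, n = 5) and -4.71 ± 0.09 in placebo hearts (SD, n = 3), an unequal change of 0.80. Acsl4 minus Acsl3 changed by 0.67, Fabp4 minus Fabp3 by 0.92 and Fabp5 minus Fabp3 by 0.62. In these 4 pairs, and in Acsl4 minus Acsl5 and Acsl5 minus Acsl1, every ILPD array lay above every placebo array (6 of 9 pairs). In each pair the gene with the larger difference as deposited was put first. The sign of the unequal change was thus fixed by these data, and groups that separate could do so only in this direction. The pairs share genes, and the share of such separation among pairs of other probe sets was not computed.

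The other 5 pairs did not pass. Acsl4 minus Acsl5 (0.45) and Acsl5 minus Acsl1 (0.36) had an adjusted p of 0.0536 in the exact test. Fabp4 minus Fabp5 (0.31), Acsl5 minus Acsl3 (0.23) and Acsl3 minus Acsl1 (0.13) had 0.25. The differences of Fabp4 and Fabp5 were therefore not told apart. After cyclic loess or quantile normalization 3 pairs stood at the smallest p, and the lowest adjusted p was 0.0536. The unequal change of Acsl4 minus Acsl1 was then 0.61 and 0.59, Fabp4 minus Fabp3 was 0.84 and 0.88, and Fabp5 minus Fabp3 was 0.38 and 0.42.

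**Figure D3:**
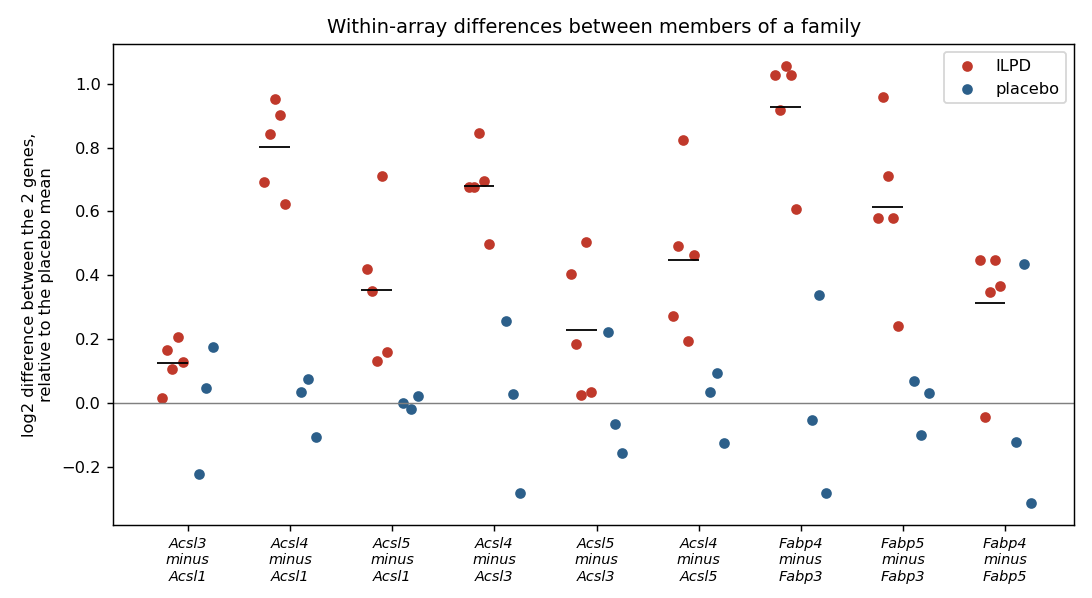
Within-array log2 difference between the 2 genes of each pair, set to 0 at the placebo mean, for ILPD arrays (red, left) and placebo arrays (blue, right), with a line at the ILPD mean. The groups separate in 6 of 9 pairs, the 3 that hold Acsl4, Acsl5 against Acsl1, and Fabp4 and Fabp5 against Fabp3, and they overlap for Fabp4 against Fabp5.

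Promoter windows are shown for Acsl4, the member that rose and has an entry in the RefSeq table used here, and for Acsl1. The pair Acsl4 minus Acsl1 passed the exact test as deposited, but not after quantile or cyclic loess normalization. The sequences are from RefSeq on GRCr8, 5′ to 3′ on the gene's strand, from 250 bases before to 50 after the start; that of Acsl4 is chrX:110803212-110803511 (minus strand) and that of Acsl1 is chr16:52532343-52532642 (minus strand). Capitals mark a GC box (GGGCGG) or a CCAAT box (CCAAT) on either strand, which may overlap.
Acsl4: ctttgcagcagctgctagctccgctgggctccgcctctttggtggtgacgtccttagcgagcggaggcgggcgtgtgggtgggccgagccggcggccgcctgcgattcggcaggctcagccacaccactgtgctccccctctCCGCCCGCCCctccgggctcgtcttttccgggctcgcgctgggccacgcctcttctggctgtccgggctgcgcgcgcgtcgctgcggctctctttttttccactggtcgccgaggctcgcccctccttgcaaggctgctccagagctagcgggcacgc
Acsl1: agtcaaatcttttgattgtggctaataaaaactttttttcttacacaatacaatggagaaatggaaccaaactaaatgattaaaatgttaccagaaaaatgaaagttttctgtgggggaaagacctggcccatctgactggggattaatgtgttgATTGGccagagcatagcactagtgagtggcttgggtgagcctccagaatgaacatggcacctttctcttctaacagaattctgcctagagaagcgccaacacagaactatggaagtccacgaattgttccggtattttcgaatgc
The Acsl4 window is rich in G and C (70.7%, with 33 CpG steps, against a median of 51.7% and 7 over 33469 promoters) and holds 2 GC boxes that overlap, a motif found in 33.1% of those promoters. The Acsl1 window has 40.7% G and C with 4 CpG steps and holds 1 CCAAT box, found in 37.5%. Both windows rest on the annotated start, and whether the ventricle uses that start was not tested, so they may miss the promoter in use. A TATA box (TATAAA; 14.2% of promoters) was in neither. A pair of AGGTCA half-sites in a row with 1 base between, the ideal form of the element that PPAR receptors bind, was in none of the 7 member promoters in the table and is in 0.0538% of all. The 7 are those of Cd36, Slc27a1, Fabp3, Acsl1, Acsl3, Acsl4 and Acsl5. These matches describe letters only; Acsl3, whose difference was -0.08, has 72.7% G and C and 4 GC boxes.

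Within the ILPD group the members tended to be high and low on the same arrays. ILPD array 5 had the lowest ILPD value for 7 of 11 member probe sets, among them Fabp4, Fabp5, Acsl4, Slc27a1 and both of Cd36, while it was lowest for 16.6% of all probe sets. ILPD array 3 had the highest value for 6 of 11, beside 14.1% of all. These are counts over genes that share arrays, and they are given as a description. By likeness of deviations from the group means over the 8 arrays, the probe sets closest to Fabp4 were those of Npffr1 (Pearson r = 0.971), Rffl (0.970) and Pold3 (0.966), and those closest to Acsl4 were Frzb (0.985), Clxn (0.985) and Fam219a (0.974). They were picked as the highest among 15209 probe sets with 1 symbol, over only 8 arrays. Whether such r values exceed what that choice alone gives was not tested. None of these 6 passed the limma test; Frzb, a secreted Wnt antagonist, had the largest difference among them (0.76, adjusted p = 0.0624).

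Other genes of the route did not pass. Of 60 genes listed by role, 50 were measured; 0 rose and 0 fell in limma (6 and 9 at an unadjusted p under 0.05, beside 11.3% and 7.01% of all probe sets), and their median difference was 0.01. Among lipase partners and lipoprotein receptors, Angptl4, a secreted inhibitor of lipoprotein lipase, had the largest positive difference, 0.95 (SE 0.36, adjusted p = 0.206). It read 10.60, 10.37, 10.44, 10.31 and 9.59 on the ILPD arrays and 10.05, 9.66 and 8.24 on the placebo arrays, so that placebo array 3 stood far below the others. The largest negative one was that of Scarb1, the receptor for high-density lipoprotein, at -0.35 (adjusted p = 0.0547). Gpihbp1, which holds the lipase on the capillary, differed by 0.18 (adjusted p = 0.649).

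Among transporters, Cav1, a coat protein of caveolae, was highest at 0.26 (limma adjusted p = 0.246) and Got2, the mitochondrial aspartate aminotransferase that also binds fatty acids at the plasma membrane, lowest at -0.20 (0.0994; -0.02 after cyclic loess). Of the 14 other binding proteins, the ends were Acbd7 (0.14, adjusted p = 0.231) and Fabp9 (-0.23, 0.119). Of 9 other activating enzymes, Acsm4 had 0.15 (0.221) and Acsf2, a mitochondrial acyl-CoA synthetase, -0.29 (0.091; -0.13 after cyclic loess). Of 7 thioesterases, which split acyl-CoA again, Acot1 had 0.41 (0.236) and Acot13 -0.36 (0.157). Of 6 genes of the carnitine shuttle, which takes activated fatty acids into mitochondria, Cpt1a, the form most abundant in liver, had 0.47 (0.137) and Crat, carnitine acetyltransferase, -0.21 (0.11; -0.04 after cyclic loess).

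**Figure D4:**
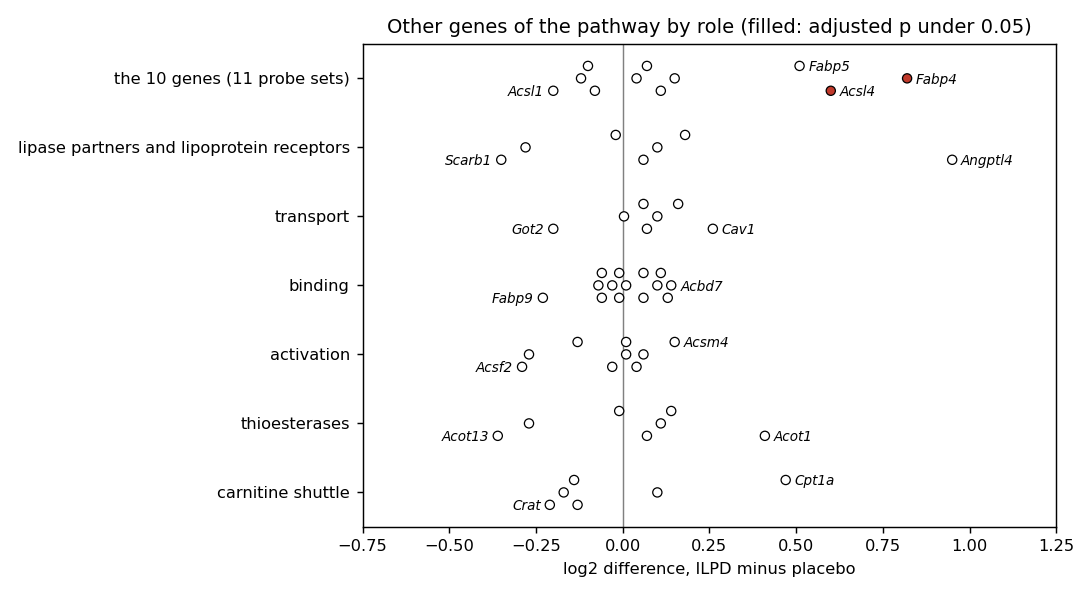
Log2 difference of ILPD minus placebo for the 11 member probe sets (top row) and for 50 other genes of the route by role, with the ends of each row named. Fabp4 and Acsl4 are the only filled points (adjusted p under 0.05), and Angptl4 (0.95) lies farthest to the right without passing.

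Fabp4, Fabp5 and Acsl4 are also expressed by cells other than cardiomyocytes, and some markers of such cells differed between the groups as well. For all marker counts here, limma called 1.96% of all probe sets higher and 0.857% lower. At an unadjusted p under 0.05 these shares were 11.3% and 7.01%. Of 12 endothelial markers 2 rose, Egfl7 (0.60, limma adjusted p = 0.0282) and Robo4 (0.43, 0.0381), and 0 fell. At an unadjusted p under 0.05 there were 4 higher and 1 lower. Cldn5, a tight junction protein of endothelium, had -0.42 (0.133). The defining endothelial markers Pecam1 (0.10, 0.538) and Cdh5 (-0.16, 0.446) did not pass. The summed level of the list, as log2, ran from 14.06 to 14.28 in ILPD hearts and from 14.14 to 14.16 in placebo hearts. Of 8 smooth muscle or pericyte markers 1 rose, Kcnj8, a potassium channel subunit of pericytes (0.64, 0.012), and 0 fell. At an unadjusted p under 0.05 there were 4 higher and 0 lower, and 7 of 8 differences were positive (8 after cyclic loess). Their summed level was 13.82 to 14.02 in ILPD hearts and 13.76 to 13.89 in placebo hearts.

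Of 7 adipocyte markers 0 passed (1 at an unadjusted p under 0.05), and all 7 differences were positive, as were 58.5% of those of all probe sets, with a median of 0.13 (0.07 after cyclic loess, where 6 were positive, and 0.05 after quantile normalization). Retn, resistin, had 0.02 as deposited and -0.05 after cyclic loess. Adiponectin (Adipoq) had 0.31 (limma adjusted p = 0.316) and perilipin 1 (Plin1) 0.13 (0.284), and the summed level was 10.09 to 10.28 in ILPD hearts and 10.01 to 10.09 in placebo hearts. Of 12 monocyte or macrophage markers 1 rose, the chemokine receptor Cx3cr1 (0.76, 0.0311), and 4 had an unadjusted p under 0.05. The chemokine receptor Ccr2 had 1.21 (0.0624) and the lysozyme Lyz2 0.65 (0.148), while Cd68 (0.19, 0.445) and Csf1r (0.19, 0.27) did not pass; the summed level was 13.46 to 14.08 in ILPD hearts and 13.05 to 13.51 in placebo hearts. Of 12 neutrophil markers 1 rose, the gelatinase Mmp9 (0.58, 0.0466), 6 had an unadjusted p under 0.05, and 12 of 12 differences were positive. Members with larger differences did not pass, among them Lcn2 (1.36, 0.119), Mmp8 (1.32, 0.0511), Il1r2 (1.17, 0.0683) and Cxcr2 (1.02, 0.0898); S100a8 had 0.58 (0.176) and Csf3r 0.48 (0.326). The neutrophil sum was 11.93 to 13.03 in ILPD hearts and 11.35 to 11.83 in placebo hearts, so the groups did not overlap. The cardiomyocyte sum, given below, did not overlap either, with ILPD hearts lower. Among all single probe sets, 7.95% had every ILPD array above every placebo array and 4.42% every one below.

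Of 13 cardiomyocyte markers 1 fell, Tnnc1, cardiac troponin C (-0.37, limma adjusted p = 0.0195; -0.19 after cyclic loess), with a summed level of 17.35 to 17.53 in ILPD hearts and 17.54 to 17.59 in placebo hearts. All 13 differences were negative as deposited, with a median of -0.14, which was 0.06 after cyclic loess (10 positive) and -0.01 after quantile normalization (6 positive). Of 8 fibroblast and 3 red cell markers 0 passed (1 and 0 at an unadjusted p under 0.05), with medians of -0.08 and -0.04. No marker can read 0 on these arrays. The part of these cell types in the values of Fabp4, Fabp5 and Acsl4 was not tested.

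The calls of Fabp4 and Acsl4 were lost in some fits without a single placebo array, as were most calls over all probe sets. Fabp4 passed in 12 of 15 alternatives, with a difference between 0.68 and 0.98, and Acsl4 in 13 of 15, with a difference between 0.54 and 0.71. Without placebo array 3 neither passed. With 1 array fewer the test also has fewer samples. The direction of Fabp4, Fabp5 and Acsl4 was positive in all 15.

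**Figure D5:**
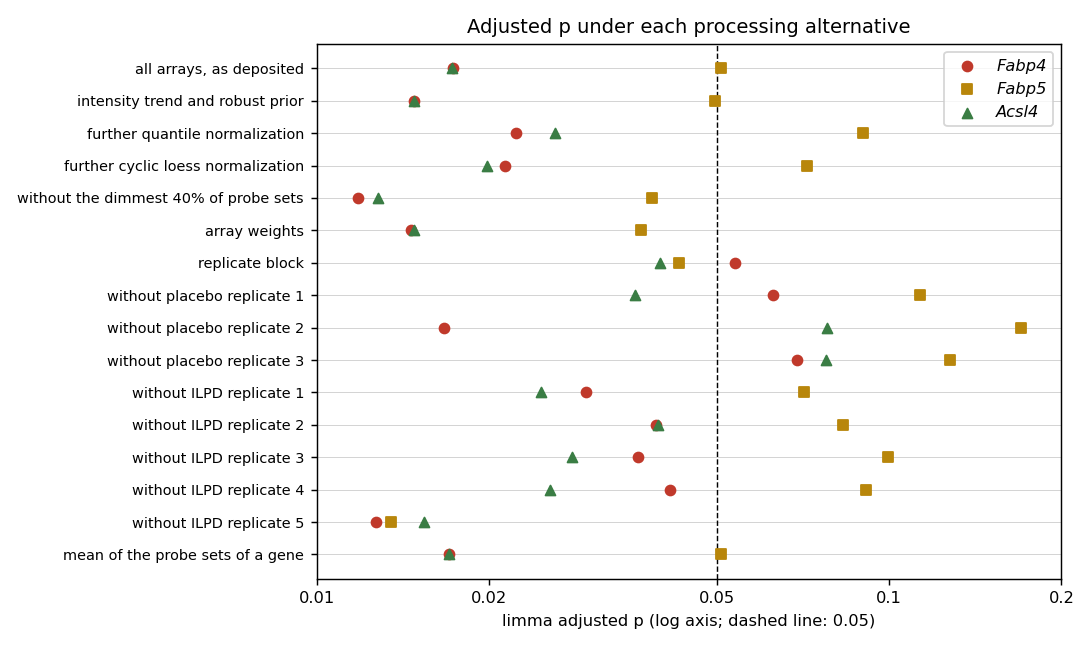
Limma adjusted p (log axis) of Fabp4, Fabp5 and Acsl4 under the fit as described and 15 alternatives, with a dashed line at 0.05. Points right of the line did not pass: for Fabp4 the replicate block and the fits without placebo array 1 or 3, and for Acsl4 those without placebo array 2 or 3.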

How the data were processed

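Total RNA of left ventricle was labelled with biotin and hybridised to Affymetrix arrays, per the labels' protocols, and 8 arrays were used. The authors deposited log2 values for 28826 probe sets on each array (the scale was settled from their range); background correction and normalization are not given in the sources used here, and the submitters' processing notes name R 2.14.2. The number of arrays limits the precision. Groups came from the sample titles.

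Genes were named by the platform annotation, updated by gene ID through RefSeq's table of GRCr8 (15178 of 15209 probe sets with 1 symbol matched; 306 had several symbols and 13311 none). The brightest probe set stood for a listed gene; for members each was used. ILPD minus placebo was fitted with lmFit and eBayes of limma 3.58.1 (R 4.3.3; no covariates, no pseudocount), two-sided, and p-values were adjusted over the whole table by Benjamini-Hochberg; the fit was tested on simulated data. Pairs of members had an exact permutation test. Alternatives were an intensity trend with robust prior, quantile or cyclic loess normalization, array weights, a replicate block, leaving out the dimmest 40% of probe sets or each array in turn, a threshold of 0.1 and mean probe sets; the one for linear values was not needed.

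The members, lists and tests were chosen with earlier results of these data known. Named outside the members were list genes that passed, the ends of each list of the route, defining markers, and the 3 probe sets most like each called member; Gpihbp1, Cldn5, Lum, Retn, Ccr2, Lyz2, Lcn2, Mmp8, Il1r2, Cxcr2 and Vldlr were named after their values were seen. Plots were made in Python 3.11.15 and matplotlib 3.10.9.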

Additional observations from a re-analysis of the deposited data

How the results depend on the processing

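The count of member probe sets that rose was 2 or 3 under every alternative on all arrays, and ran from 0 (without placebo array 3) to 3 (without ILPD array 5) when single arrays were left out: 1 without placebo array 1 and 1 without placebo array 2. No member fell under any alternative (0 throughout). Small differences changed sign without passing the test: Lpl was 0.04 after quantile normalization and 0.07 after cyclic loess, Fabp3 was 0.03 and 0.09, and the pair Acsl3 minus Acsl1 was -0.1 and -0.08. Over the fits without single arrays, Cd36 ran from -0.0047 to 0.21 (10853240), Slc27a1 from -0.07 to 0.2 and Acsl3 from -0.14 to 0.02. Without placebo array 3 the Cd36 probe sets were -0.0047 (10853240) and -0.01 (10940473) and Acsl3 was 0.02; without ILPD array 3 Cd36 (10940473) was -0.01 and Slc27a1 -0.07, and without ILPD array 2 Slc27a1 was -0.01. Of the 9 family pairs 4 passed, but 0 after quantile normalization, 0 after cyclic loess and 0 whichever array was left out, where fewer splits raise the smallest p to 0.0286 or 0.0476.

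Of the other pathway genes 0 passed as deposited; 1 rose with the replicate block (Acot1, adjusted p = 0.0487), 1 fell without the dimmest probe sets (Scarb1, 0.0451), and 0 to 1 fell without single arrays (Vldlr, 0.0472, without ILPD array 5). Of the cell type markers 5 rose: 1 after quantile normalization, 3 after cyclic loess, 8 without the dimmest probe sets and 0 to 5 without single arrays (0 without placebo array 2 or 3, 1 without ILPD array 2). The 1 marker that fell became 0 after quantile normalization and 0 after cyclic loess, and 0 to 1 without single arrays (0 without placebo array 2 or 3); with the replicate block 2 fell, Cldn5 (0.043) and Lum (0.0448), while Tnnc1 had 0.103.

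Same-numbered arrays of both groups did not all deviate together (r = 0.221, -0.0642 and -0.098 for numbers 1, 2 and 3), so the numbers were not taken as pairs. With the replicate number as a block 2 member probe sets rose, Acsl4 (adjusted p = 0.0398) and Fabp5 (0.043), while Fabp4 had 0.0539; Slc27a1 differed there by 0.36 without passing. Among markers Robo4 (0.1), Cx3cr1 (0.0556) and Mmp9 (0.108) did not pass there, and Lyz2 (0.03), Ccr2 (0.0254), Il1r2 (0.0398) and Lcn2 (0.045) rose. The cause of these shifts was not tested. No signal over background was used here, so what is too dim to measure was not settled.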
